A study of Mus musculus with 4 samples.

Results

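The 10 genes described here are transcription factor genes of the temporal code of spinal neurons, and each was taken as the row of the deposited expression table that carries its symbol, so that 10 of 24421 rows were chosen. The rule uses no measured value, but the genes were picked with earlier results of these data known. They fall into an early group (*Onecut1*, *Onecut2* and *Onecut3*), a middle group (*Pou2f2*, *Zfhx3* and *Zfhx4*) and a late group (*Nfia*, *Nfib*, *Nfic* and *Nfix*). RNA-seq had been carried out on cells positive for GFP that were sorted from mouse neural tubes at E11.5, in embryos heterozygous for a GFP allele of *Prdm13* (Prdm13GFP/+, the control) and in homozygous embryos (Prdm13GFP/GFP, the mutant). This allele carries GFP with a stop codon in exon 1 of the gene and is a disrupted one, so both groups carry at least 1 disrupted copy and the control is not wild type. The mice came from 2 founder strains that were interbred on a mixed ICR and C57Bl/6 background. RNA from several embryos of a genotype was combined into 1 pool, and 2 libraries were made from each pool. Every SD and p-value below therefore carries the spread between libraries of a pool and none between embryos. The whole reads recovered from the RPKM values summed to 11495081 and 18291636 in the Prdm13GFP/+ libraries and to 16320342 and 13809374 in the Prdm13GFP/GFP libraries.

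Neurons born at successive times in the developing spinal cord, in domain after domain, carry different sets of these factors. Onecut factors, which bind DNA through a cut domain and a homeodomain, mark the first neurons that a progenitor domain makes. *Pou2f2*, an octamer-binding POU factor, and the Zfhx factors, very large proteins with many zinc fingers and homeodomains, follow in neurons born next, and nuclear factor I (Nfi) proteins mark the neurons born late, with *Nfia* and *Nfib* also taking part in the switch of progenitors to glia. The temporal code is laid over the code that sets a neuron's type, such as the choice between the GABAergic and the glutamatergic neurons of the dorsal horn, in which Prdm13 acts. In sorted bulk cells, fewer cells that make a gene and less RNA of it per cell cannot be told apart. The cells were sorted on GFP from the *Prdm13* allele itself, for which the mutant is homozygous and the control heterozygous. Whether the sort took the same cells in both genotypes was not tested.

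*Prdm13*, the targeted gene (chromosome 4, 21675865 to 21685963, GRCm38), stood at 113.9 and 126.8 RPKM in the Prdm13GFP/+ libraries and at 309.5 and 324.4 RPKM in the Prdm13GFP/GFP libraries. It was thus 2.63-fold higher in the mutant (limma on log2(RPKM + 0.1), log2 fold change 1.40 ± 0.06 SE, adjusted p = 3.63e-05). RPKM is a read count scaled to exon length and to the size of the library, and reads from the exons downstream of the insertion are still counted, so that this value checks that the groups differ at the targeted gene and not whether functional Prdm13 was lost.

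All 3 early genes had lower values in both mutant libraries than in either control library, and *Onecut1* and *Onecut2* passed the test. A gene is called when the adjusted p is below 0.05 and the fitted fold is at least 1.5. *Onecut2* (chromosome 18, 64340032 to 64398488), the most abundant of the 3, stood at 2.88 RPKM in both control libraries and at 1.52 and 1.67 RPKM in the mutant libraries. It fell to 55.5% of its control mean (log2 fold change -0.81 ± 0.13 SE, adjusted p = 0.00799). *Onecut1* (chromosome 9, 74861921 to 74889648), first known from liver and pancreas as hepatocyte nuclear factor 6, stood at 2.09 and 2.25 RPKM in the controls against 1.32 and 1.12 RPKM in the mutants. It fell to 56.3% of its control mean (-0.78 ± 0.17 SE, adjusted p = 0.0211). *Onecut3* (chromosome 10, 80494906 to 80517266) stood at 1.03 and 1.49 RPKM in the controls and at 0.774 and 0.811 RPKM in the mutants. Its mutant mean was 62.8% of the control mean, but the controls differed from one another by more than the nearer of them did from the mutants, and it did not pass the test (-0.59 ± 0.26 SE, adjusted p = 0.165). The fold changes are on the log2(RPKM + 0.1) scale, which understates the change of genes at such low levels.

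*Onecut1* and *Onecut3* rested on few reads, and *Onecut2* on more. *Onecut2* was read 446 and 706 times in the controls and 332 and 306 times in the mutants, and the 95% counting intervals of the control libraries (exact Poisson, 2.62 to 3.16 and 2.67 to 3.10 RPKM) lay above those of the mutants (1.37 to 1.70 and 1.49 to 1.87 RPKM). *Onecut1* rested on 44 and 75 reads in the controls and 39 and 28 in the mutants, and here the intervals of the genotypes met (1.52 to 2.80 RPKM in the shallowest control, 0.936 to 1.80 RPKM in the first mutant library). For *Onecut1* the exon length solved from the values was 1823 bases against 3957 annotated, so a multiple of these reads would fit as well. With 2 times the reads the same intervals would be 1.67 to 2.57 and 1.04 to 1.64 RPKM and would not meet, so whether they meet is not settled. *Onecut3* rested on 56 and 128 reads in the controls and 59 and 52 in the mutants. The intervals cover counting error only. Leaving out 1 library leaves a genotype with 1, which is then assumed to vary as the other genotype does. *Onecut1* was lost from the calls whichever library was left out (adjusted p 0.0551 to 0.102), with log2 fold changes of -0.89 to -0.68, and *Onecut2* without the second control library (0.0517) or the first mutant library (0.0507), while it stayed a call without the first control library (0.0487) or the second mutant library (0.0487). The log2 fold change of *Onecut3* was -0.34 without the second control library. With voom on the recovered reads *Onecut3* was called as well (log2 fold change -0.70, adjusted p = 0.00910), while its adjusted p ran up to 0.442 over the other alternatives and was 1 with treat, which tests against 1.5-fold itself.

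**Figure D1:**
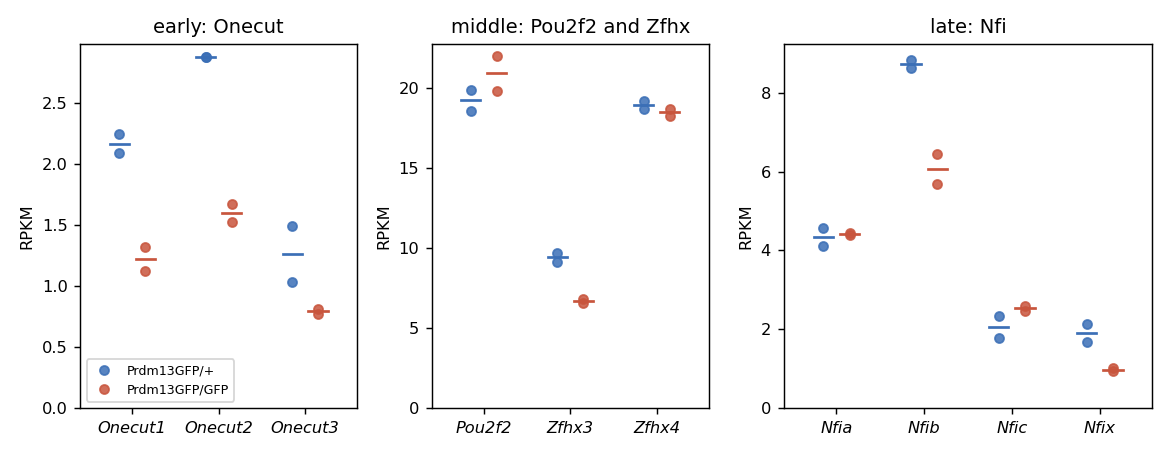
RPKM (linear axis from 0, own scale in each panel) of the 10 genes in each library, blue for Prdm13GFP/+ and red for Prdm13GFP/GFP. Points are the 2 libraries of a genotype and bars their mean. The mutant points of the 3 Onecut genes, *Zfhx3*, *Nfib* and *Nfix* lie below both control points, those of *Zfhx4* do so by little, and those of *Nfia* lie between the control points.

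The middle genes were the most abundant of the 10 and none of them was called. *Zfhx3* (chromosome 8, 108279311 to 108961636) stood at 9.11 and 9.70 RPKM in the controls and at 6.80 and 6.55 RPKM in the mutants. It was lower at an adjusted p of 0.00515, with a mean 29.1% below the control and a fitted change of -0.49 ± 0.07 SE that lies short of 1.5-fold. The adjusted p of *Zfhx3* was 0.0628 without the second control library and 0.0705 without the second mutant library. *Zfhx4* (chromosome 3, 5218218 to 5415861), a close relative with more reads than any other of the 10 genes, gave 18.7 and 19.2 RPKM in the controls and 18.7 and 18.3 RPKM in the mutants. A 1.5-fold change in either direction lay outside the 95% interval of its log2 fold change (-0.16 to 0.09, adjusted p = 0.673). *Pou2f2* (chromosome 7, 25087350 to 25180797) gave 18.6 and 19.9 RPKM in the controls and 19.8 and 22.0 RPKM in the mutants. The libraries of the genotypes overlapped (log2 fold change 0.12 ± 0.07 SE, 95% interval -0.05 to 0.29, adjusted p = 0.289).

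The 4 late genes did not move together. *Nfix* (chromosome 8, 84704712 to 84801238) stood at 1.67 and 2.14 RPKM in the controls and at 0.933 and 1.01 RPKM in the mutants, from 131 and 266 reads against 103 and 94. It fell to 51.1% of its control mean (log2 fold change -0.89 ± 0.20 SE, adjusted p = 0.0253), and was lost from the calls without the second control library (0.0812) or without either mutant library (0.0999 without the first, 0.0984 without the second). Its log2 fold change in these fits was -0.72, -0.84 and -0.94. *Nfib* (chromosome 4, 82290173 to 82506751), the most abundant of the Nfi genes, stood at 8.64 and 8.85 RPKM in the controls and at 6.44 and 5.70 RPKM in the mutants. It was lower at an adjusted p of 0.00738, with a mean 30.6% below the control, and like *Zfhx3* fell short of the fold (-0.52 ± 0.08 SE). *Nfib* was called without the first mutant library (-0.61, adjusted p = 0.0274), and its adjusted p was above 0.05 when any other library was left out (0.0518 to 0.0765). *Nfia* (chromosome 4, 97578066 to 98118876) gave 4.57 and 4.11 RPKM in the controls against 4.40 and 4.44 RPKM in the mutants, both of which lie between the control libraries (0.03 ± 0.09 SE, 95% interval -0.19 to 0.25, adjusted p = 0.864). *Nfic* (chromosome 10, 81396191 to 81431919) was the 1 gene of the 10 with both mutant libraries (2.60 and 2.46 RPKM) above both control libraries (1.78 and 2.32 RPKM), and did not pass the test (0.30 ± 0.16 SE, adjusted p = 0.237). Its log2 fold change was 0.12 without the first control library and 0.48 without the second.

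Set beside all genes, 3 of the 10 were called lower and none higher, where 2.67% of the 12046 genes tested were called lower and 3.65% higher. An adjusted p below 0.05 with a lower value in the mutant, whatever the fold, was reached by 5 of the 10 (*Onecut1*, *Onecut2*, *Zfhx3*, *Nfib* and *Nfix*) and by 9.95% of all genes. Both mutant libraries lay below both control libraries for 7 of the 10 and above for 1, against 30.3% and 31.7% of all genes. *Zfhx4* is among the 7 by a narrow margin, its nearest libraries being 18.69 RPKM in the mutant and 18.72 RPKM in the control. The median log2 fold change was -0.78 over the early, -0.04 over the middle and -0.25 over the late genes, beside 0.01 over all genes tested. *Onecut3* and *Nfix* reached the filter (a mean of 1 RPKM in either genotype) through the control alone, so for these 2 a lower value in the mutant was fixed once they were tested. Of the other 8 genes, 2 were called lower (*Onecut1* and *Onecut2*) and 4 were lower at an adjusted p below 0.05. For 5 of the 8, *Zfhx4* with its narrow margin included, both mutant libraries lay below both controls. Without *Onecut3* and *Nfix* the median was -0.80 over the early and 0.03 over the late genes. The shares of all genes above include genes that passed the filter through the control alone. They are therefore not a matched comparison for these 8, and no share under the same limit is given.

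**Figure D2:**
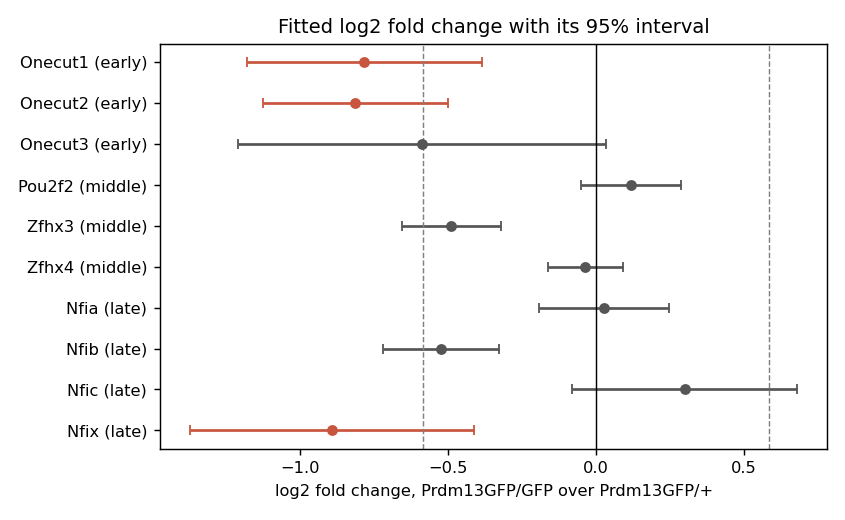
Fitted log2 fold change (x axis, Prdm13GFP/GFP over Prdm13GFP/+) of the 10 genes with its 95% interval from limma. Genes called at an adjusted p below 0.05 and a 1.5-fold change are red, the others grey, and dashed lines mark 1.5-fold. *Onecut1*, *Onecut2* and *Nfix* are red, and the interval of *Zfhx4* is the narrowest, from -0.16 to 0.09.

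The order of levels was nearly the same in both genotypes. In the controls *Pou2f2* (19.2 RPKM ± 0.92 SD, n = 2) and *Zfhx4* (19.0 ± 0.34) overlapped at the top, followed by *Zfhx3* (9.41 ± 0.42), *Nfib* (8.74 ± 0.15) and *Nfia* (4.34 ± 0.33), with no overlap between these neighbours. *Onecut2* came next, and then *Onecut1*, *Nfic* (2.05 ± 0.38) and *Nfix* (1.90 ± 0.33), whose libraries overlapped, with *Onecut3* last. In the mutants *Nfic* (2.53 ± 0.10) stood above all 3 Onecut genes, and *Nfix* (0.973 ± 0.06) remained above *Onecut3* (0.792 ± 0.03). Against the genes tested, whose median was 12.6 RPKM over the 4 libraries, *Pou2f2* lay above 64.6% of genes and *Zfhx4* above 62.6%, while *Onecut3* lay above 2.02% and *Nfix* above 6.52%.

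Summed over each group, the early genes made up 5.996 and 6.612 RPKM in the control libraries and 3.615 and 3.604 RPKM in the mutant libraries. The early sum in the mutant was 57.3% of that in the control. The middle genes summed to 46.4 and 48.8 RPKM in the controls and 45.3 and 46.8 RPKM in the mutants, and their genotypes overlapped. The late genes summed to 16.7 and 17.4 RPKM against 14.4 and 13.6 RPKM, or 82.1% of the control. The early to late ratio was 0.360 and 0.380 in the controls and 0.251 and 0.265 in the mutants, and the early to middle ratio 0.129 and 0.136 against 0.0798 and 0.0770. The middle to late ratio was 2.79 and 2.80 in the controls and 3.15 and 3.44 in the mutants. That last ratio turned around, to 0.928 times the control, when *Pou2f2*, *Onecut2* and *Nfib*, the most abundant gene of each group, were left out. These ratios are descriptions of 2 libraries a genotype, and no difference between the groups of genes was tested. Within the early group the shares barely moved, *Onecut2* taking 45.8% of the sum in the control and 44.3% in the mutant and *Onecut1* 34.4% and 33.8%. Within the late group *Nfib* took 51.3% in the control and 43.3% in the mutant, *Nfix* 11.1% and 6.96%, *Nfia* 25.5% and 31.6%, and *Nfic* 12.0% and 18.1%.

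**Figure D3:**
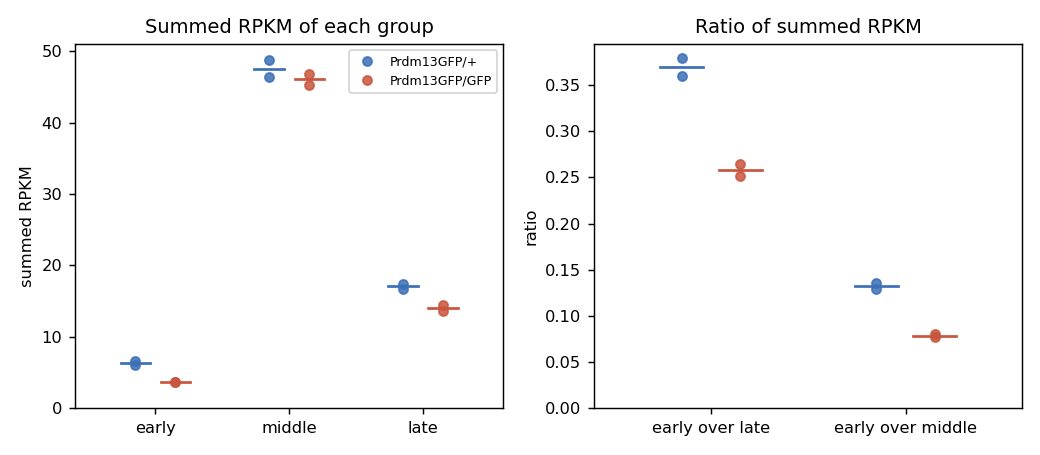
Left, summed RPKM of the early, middle and late genes in each library. Right, the early over late and early over middle ratios of the sums. Points are the 2 libraries of a genotype, bars their mean, and both y axes start at 0. The early sum and these 2 ratios are lower in both mutant libraries, while the middle sums overlap.

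For the genes with an entry in the promoter table used here, the sequence before the start shows what the called Onecut and Nfi genes and *Nfia*, an Nfi gene with overlapping libraries, hold for the E-box CANNTG, the letters bound by basic helix-loop-helix factors such as Ptf1a, with which Prdm13 works. The table held *Onecut1*, *Pou2f2*, *Zfhx3*, *Nfia*, *Nfic* and *Nfix* (6 of the 10 genes, with 4 starts for *Nfix* and 9 in all). The 250 bases before the start are given 5′ to 3′ on the strand of the gene, from RefSeq on GRCm38.p6, with each E-box in capitals. *Onecut1* is chr9:74861671-74861920 on the plus strand. *Nfix* is the start with most E-boxes, chr8:84775829-84776078 on the minus strand. *Nfia* is chr4:97581693-97581942 on the plus strand. The *Nfix* and *Nfia* windows lie inside the gene spans given above, before internal starts.
Onecut1: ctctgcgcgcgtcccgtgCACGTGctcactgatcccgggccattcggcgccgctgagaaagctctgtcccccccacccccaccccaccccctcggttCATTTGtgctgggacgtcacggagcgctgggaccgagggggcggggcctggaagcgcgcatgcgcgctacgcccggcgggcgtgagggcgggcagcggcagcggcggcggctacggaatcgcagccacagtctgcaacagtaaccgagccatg
Nfix: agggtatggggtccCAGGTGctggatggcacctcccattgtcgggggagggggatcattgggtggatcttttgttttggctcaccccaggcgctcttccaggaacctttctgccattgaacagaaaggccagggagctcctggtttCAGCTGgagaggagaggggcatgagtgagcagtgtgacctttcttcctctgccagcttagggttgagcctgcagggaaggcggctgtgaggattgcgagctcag
Nfia: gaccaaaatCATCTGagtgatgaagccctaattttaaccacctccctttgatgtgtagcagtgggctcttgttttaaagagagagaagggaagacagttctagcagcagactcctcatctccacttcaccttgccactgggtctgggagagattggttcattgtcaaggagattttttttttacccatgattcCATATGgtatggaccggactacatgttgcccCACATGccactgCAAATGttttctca
The E-box is its own reverse complement in form, so both strands are covered. *Onecut1* held 2, this *Nfix* start 2 and *Nfia* 4. The other *Nfix* starts held 0, 0 and 1, *Pou2f2* 1, *Nfic* 1 and *Zfhx3* 0. At least 1 E-box stood in 66.2% of the 32851 promoters of the same length, at least 2 in 31.8% and at least 4 in 3.84%, so the counts at *Onecut1* and *Nfix* are common ones. The octamer ATGCAAAT, the site of Pou2f2, was searched on both strands and stood in none of the 9, against 1.60% of all promoters. At so low a share, none in 9 entries, 4 of them starts of *Nfix*, says nothing about these genes. Matches are letters in a window, with no measure of binding.

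Among 4 further genes of the neuronal code, 3 were tested and none was called, with a median log2 fold change of -0.04. *Tcf4*, an E protein and the most abundant of them, gave 43.0 and 42.5 RPKM in the controls and 41.8 and 41.3 RPKM in the mutants. *Zfhx2*, the third Zfhx gene, gave 21.6 and 24.6 RPKM against 20.9 and 22.2 RPKM. *Neurod2*, found with the Nfi genes in late-born neurons, gave 1.32 and 1.25 RPKM against 1.80 and 1.75 RPKM (log2 fold change 0.44 ± 0.16 SE, adjusted p = 0.113), and *Neurod6* was below 1 RPKM in every library. Of 5 relatives of the members that are not part of the code (*Cux1*, *Cux2*, *Satb1*, *Pou2f1* and *Pou2f3*), 4 were tested and none was called, with a median of 0.02. *Satb1* was the most abundant of these, at 20.4 and 22.0 RPKM in the controls and 21.2 and 22.1 RPKM in the mutants.

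Progenitor genes that mark early and late stages were tested beside the neuronal code. None of the 6 early progenitor genes was called. Their most abundant gene, *Igf2bp1*, an RNA-binding protein gene, gave 39.2 and 42.0 RPKM against 38.4 and 40.6 RPKM, and their median log2 fold change was -0.18. *Hmga2*, which encodes a chromatin protein, gave 17.4 RPKM in both controls and 12.7 and 13.4 RPKM in the mutants, and like *Zfhx3* and *Nfib* it was lower at an adjusted p below 0.05 but short of 1.5-fold (-0.41 ± 0.06 SE, adjusted p = 0.00524). Of 8 late and gliogenic progenitor genes, 5 were tested and 1 was called, with a median of 0.04. *Slc1a3*, which encodes the glutamate transporter GLAST, rose from 2.57 and 2.82 RPKM to 12.4 and 11.4 RPKM, 4.43-fold (adjusted p = 2.77e-05). *Npas3* (-0.38, adjusted p = 0.0182) and *Hopx* (0.44, adjusted p = 0.0118) also reached an adjusted p below 0.05, in opposite directions and short of 1.5-fold. *Fabp7*, the most abundant of this list, gave 704.2 and 627.3 RPKM against 629.5 and 636.1 RPKM.

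Cell type markers moved with the genotype in the same libraries. All 10 dorsal inhibitory markers were called lower, from 1.71-fold (*Gbx1*) to 6.20-fold (*Pax2*), and their summed level was 541.3 and 579.3 RPKM in the controls and 107.4 and 114.1 RPKM in the mutants. *Lhx5* was the most abundant of them, and *Pax8*, *Lhx1*, *Gad1*, *Gad2*, *Slc32a1*, *Slc6a5* and *Skor2* complete the list. All 7 dorsal excitatory markers were called higher (*Slc17a6*, *Isl1*, *Pou4f1*, *Tlx1*, *Tlx3*, *Prrxl1* and *Lmx1b*), with summed levels of 30.4 and 33.3 RPKM in the controls and 195.0 and 200.6 RPKM in the mutants, the largest fold being that of *Tlx3* (17.6-fold). *Tlx1* reached the filter through the mutant alone (mean of 0.925 RPKM in the control), so its higher value was fixed once it was tested. The summed level of the 3 Onecut genes was 1.75-fold lower in the mutant. The median log2 fold change was -2.47 over the inhibitory and 2.11 over the excitatory markers. The authors' selected changed genes from this RNA-seq already included all of these markers except *Gbx1* and *Prrxl1*. The direction of the others was thus known in advance. Among 12 pan-neuronal genes 4 were called higher (*Nefl* 2.86-fold, *Nefm* 2.32-fold, *Gap43* 2.29-fold and *Stmn2* 1.52-fold) and *Snap25* was called lower (1.55-fold), while *Tubb3*, the most abundant, gave 1017 and 1062 RPKM against 1265 and 1372 RPKM. *Tubb3* (log2 fold change 0.34), *Elavl4* (0.23) and *Elavl3* (0.17) were higher at an adjusted p below 0.05, short of 1.5-fold. Among 10 neural progenitor genes *Sox1* alone was called, 1.61-fold lower, and *Vim*, the most abundant, gave 931.6 and 931.8 RPKM against 947.0 and 986.4 RPKM. Others of this list reached an adjusted p below 0.05 short of 1.5-fold, *Sox2* (log2 fold change -0.48) and *Hes1* (-0.29) with lower values and *Sox3* (0.54), *Hes5* (0.42), *Notch1* (0.37) and *Pax6* (0.26) with higher ones. The medians were 0.20 over the pan-neuronal and 0.08 over the progenitor genes. The sorted cells thus held markers of both progenitors and neurons at high levels in each library. The part of these shifts in the changes of the Onecut and Nfi genes was not tested.

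Markers of other cells ranged from near 0 to abundant. All 6 motor neuron markers stood below 1 RPKM in each library, the highest value being 0.565 RPKM, and summed to 1.62 and 1.75 RPKM in the controls and 1.06 and 1.16 RPKM in the mutants. *Isl2* had the highest mean of these over the 4 libraries, though *Slc18a3* stood above it in the controls. Among 6 markers of dorsal root ganglion, neural crest and glia, *Sox10*, *Prph* and *Erbb3* stood below 1 RPKM, and *Foxd3*, which some spinal interneurons make as well, was called lower (10.1 and 12.8 RPKM against 4.20 and 4.25 RPKM). *Fabp7*, the most abundant of that list also, is shared with the gliogenic list. Mesenchymal markers summed to between 3.48 and 5.11 RPKM, with *Col1a2* the most abundant, and endothelial markers to at most 3.15 RPKM, with *Cldn5* the most abundant. Of these, 1 of 6 mesenchymal and 1 of 5 endothelial genes reached the filter and neither was called. Among the untested mesenchymal genes the mutant mean was 53.7% of the control for *Pdgfra* and *Prrx1* and 74.0% for *Col3a1*. Of 8 erythroid genes 4 adult globins were listed at 0 in all libraries, and the embryonic *Hbb-y* was the most abundant at 23.7 and 26.1 RPKM against 28.3 and 26.7 RPKM, followed by the embryonic *Hba-x* at 16.4 and 16.5 RPKM against 15.2 and 15.5 RPKM, with neither called. The part of these cells in the values of the 10 genes was not tested.

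**Figure D4:**
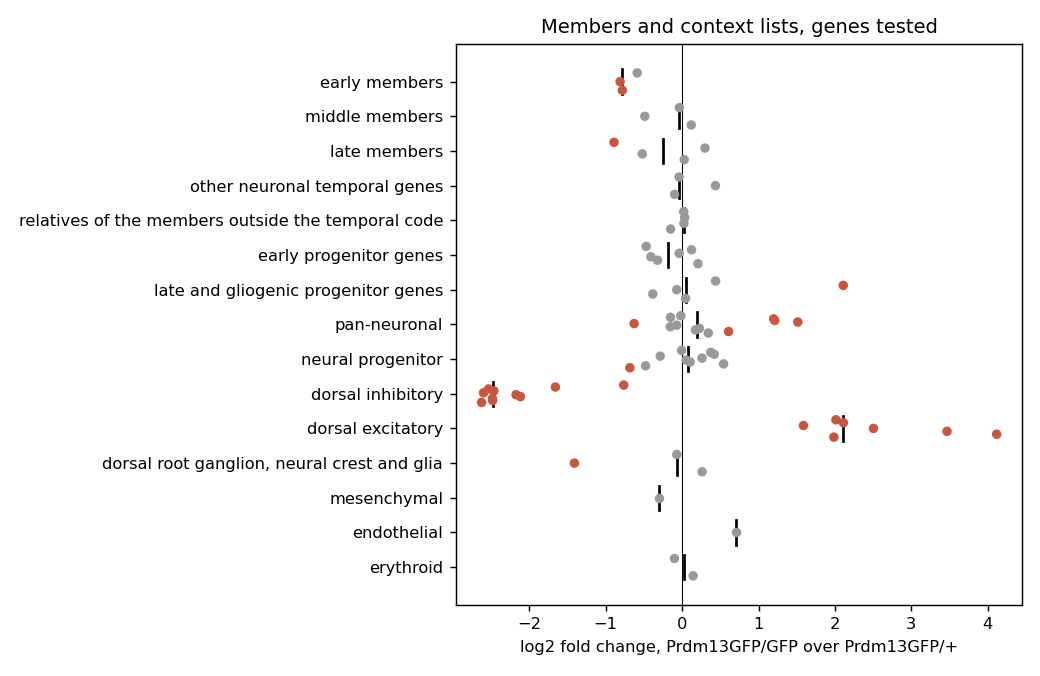
Log2 fold change (x axis, Prdm13GFP/GFP over Prdm13GFP/+) of every tested gene of the early, middle and late groups and of each list of other genes. Red points were called, grey ones were not, and black bars are medians. The early genes lie between -0.81 and -0.59, the dorsal inhibitory markers reach -2.62 and the dorsal excitatory markers 4.11.

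The genes most like each group in profile over the 4 libraries, by Euclidean distance between centred log2(RPKM + 0.1) values, were *Asic4*, *1190007I07Rik* and *Pnoc* for the early group, at distances of 0.0393, 0.0462 and 0.0597. *Asic4*, an acid-sensing ion channel gene, gave 17.4 and 19.8 RPKM in the controls and 11.05 and 10.76 RPKM in the mutants, and *Pnoc*, the gene of the nociceptin precursor, 2.96 and 3.54 RPKM against 2.00 and 1.90 RPKM. For the middle group they were *Asic1*, another channel of that family, *Fam210b* and *Fmn2*, at 0.00526 to 0.0157. For the late group they were *Snhg6*, *Nup210* and *Wnt5b*, at 0.0184 to 0.0236. The middle and late mean profiles average over genes that differ in direction, so these neighbours resemble the mean and not each gene of the group.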

How the data were processed

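GFP+ cells had been sorted by FACS from dissociated E11.5 neural tubes, and polyA RNA was sequenced with 2 libraries from 1 RNA pool per genotype. The authors aligned the reads to mm10 with TopHat2 2.1.0, counted them on RefSeq genes with featureCounts, scaled them by TMM in edgeR 3.6.8 and deposited RPKM values, which were used unchanged. Whole reads were solved from the RPKM steps for 19164 of 19200 genes above 0 (99.8%, to within 0.004 reads), with GENCODE vM21 exon lengths as a guide; the solved length was within 5% of annotation for 70.9% of genes, and reads are the smallest whole numbers near those lengths or a multiple of them. The libraries of a genotype differed by more than counting error (chi-square per degree of freedom 2.25 and 2.15), so they were kept as 2 libraries. Counting intervals and floors (3 reads) cover counting error only.

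Genes with a mean of at least 1 RPKM in either genotype (12046 of 24421) were compared on log2(RPKM + 0.1) with limma 3.58.1 (lmFit, eBayes with trend) under R 4.3.3 (two-sided; p-values adjusted by Benjamini-Hochberg over all genes tested). Calls needed an adjusted p below 0.05 and a fold of at least 1.5, which gave 762 genes, 440 higher and 322 lower in the mutant. An exact permutation test of 2 against 2 libraries cannot go below 0.333. Alternatives were other pseudocounts, filters, scalings and tests, voom on the recovered reads, and leaving out each library. The script was tested on simulated data. The members, the lists of other genes and the tests were chosen with earlier results of these data known. Named were the 10 members, *Prdm13*, the called and the most abundant gene of each of the 13 lists, and the 3 genes most like each group; other list genes were named after their values were seen. Coordinates are those of RefSeq on GRCm38. Python 3.11.15 (pandas 2.3.3, scipy 1.17.1, numpy 2.4.6, matplotlib 3.10.9) was used for tables and plots. Some list genes are not reported here and were left out of the list counts. ChIP-seq data were not analysed here.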

Additional observations from a re-analysis of the deposited data

How the results depend on the processing

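Of 150 values of the 10 genes under 15 alternatives, 129 kept their direction and their side of the threshold. This share is carried by the genes that were not called in the main fit. The 3 called genes stayed called less often, *Onecut1* in 8, *Onecut2* in 10 and *Nfix* in 9 of the 15 alternatives. With a pseudocount of 1 no member was called (0 in place of 3), the fitted changes of *Onecut1*, *Onecut2* and *Nfix* shrinking to -0.51, -0.58 and -0.55, short of 1.5-fold, at adjusted p of 0.0189, 0.00746 and 0.0245. With no filter on low values, over 24421 genes, 0 members were called at unchanged changes of -0.78, -0.81 and -0.89, with 44 genes called in all and 5 of the context lists in place of 25. With treat, which tests against 1.5-fold itself, the same changes of -0.78, -0.81 and -0.89 gave 0 members and 208 genes. With voom on the recovered reads *Onecut3* was called as well (-0.70). Leaving out 1 library, with the lone library of its genotype assumed to vary like the other genotype, gave 0 to 2 members called and 470 to 687 genes in all (470 without the second mutant library). It gave log2 fold changes of -0.89 to -0.68 for *Onecut1*, -0.87 to -0.75 for *Onecut2*, -1.06 to -0.72 for *Nfix* and -0.61 to -0.43 for *Nfib*, -0.83 to -0.34 for *Onecut3*, 0.12 to 0.48 for *Nfic*, and -0.048 to 0.10 for *Nfia*, which turned (-0.048) without the second control library. The early to late ratio in the mutant was 0.698 times the control, and 0.616 without the most abundant gene of each group; the middle to late ratio went from 1.18 to 0.928. The cause of these changes was not tested beyond the construction of the alternatives. Same-numbered libraries did not deviate together (correlation 0.047 over 12046 genes), and with a replicate block 801 genes were called and the same number of members, 3. Of the 7 list counts above 0, all 7 moved by over 1.5 times with no filter, and 96 of their 105 values over all alternatives were within 1.5 times. Reads were few for *Onecut3*, with 52 to 128 a library, and for *Onecut1*, with 28 to 75 or a multiple of these. Whether depth limited their calls was not tested.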
